A study of Mus musculus with 60 samples.

Results

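The clustered protocadherins are adhesion proteins of the cell surface whose genes lie side by side in the alpha, beta and gamma clusters on mouse chromosome 18. Members were the rows of the count table whose Ensembl transcript maps to a clustered protocadherin symbol, which gave 56 of 27665 rows, with 13 alpha, 22 beta and 21 gamma genes. In mm10 the counted alpha bodies ran from chr18:36930184 to 37187661, the beta bodies from chr18:37264938 to 37524479 and the gamma bodies from chr18:37661793 to 37841873, each on the plus strand. Nascent RNA was measured by EU-seq, in which cells take up 5-ethynyluridine for 20 min and the labelled RNA is captured and sequenced. The study asked which genes depend on the cohesin subunit RAD21, on the insulator protein CTCF and on CBP/p300 acetyltransferase activity, which A-485 inhibits.

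In the alpha and gamma clusters each variable exon has a promoter of its own, and its transcript is spliced to constant exons at the 3′ end of the cluster. Beta genes consist of a single exon and have no constant exons. The proteins recognize identical partners on other cells, and a neuron that uses a few of the promoters acquires a surface identity by which its own branches are told from those of its neighbours. CTCF and cohesin bind most of the variable promoters and distant enhancers of the locus. The C-type genes Pcdhac1, Pcdhac2, Pcdhgc3, Pcdhgc4 and Pcdhgc5 lie last in their clusters and are used more broadly than the alternate genes before them.

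Mouse embryonic stem cells (mESCs, labelled E14) and neural progenitor cells (NPCs), which were derived through epiblast stem cells, carried a degron on the endogenous protein. In the genotype GFP-AID-Rad21 (RAD21AID), indole-3-acetic acid (IAA, 500 µM) removes RAD21. These mESCs gave an initial set of 2 control and 2 IAA libraries at 4 h and an additional set of 12 and 12. From RAD21AID NPCs there were 2 control libraries, 2 for each IAA time (1, 2 and 4 h) and 2 for A-485 (10 µM, 1 h). The genotype GFP-AID-Ctcf (CTCFAID) was measured in mESCs with 4 controls and 4 libraries treated with IAA (500 µM, 6 h), and within each group 2 are named stranded and 2 are not. In GFP-FKBP12F36V-Ctcf (Y226A/F228A) mESCs (CTCFYF-AA), both Ctcf alleles carry substitutions in the N-terminal segment that binds cohesin, and dTAG13 removes the protein. That line gave 2 libraries each for control, 2 h and 4 h. In the line bTAG-delN-CTCF/dTAG-CTCF-delC, AGB1 removes the protein without the N terminus (bTAG-ΔN-CTCF) and dTAG13 the protein without the C terminus (dTAG-CTCF-ΔC). It gave 2 stranded libraries each for control, AGB1, dTAG13 and both agents at 2 h. The labels give dTAG13 as 200 nM in the CTCFYF-AA cells and 100 nM in the other line, but the column names of the other line give 200 nM, so that its dose is uncertain. The edited lines came from picked colonies, both the CTCFYF-AA and the ΔN/ΔC cells grow slowly, and no line without a degron was measured here. The treatment text of 18 mESC libraries also names triptolide, an inhibitor of transcription initiation, which 0 titles or treatment fields name, and the groups were taken from the latter. These are the CTCFAID, CTCFYF-AA and initial RAD21AID libraries.

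Totals in the count table ran from 4027449 to 21898781 reads per library, with the 6 CTCFYF-AA libraries between 4027449 and 10401709. The 2 NPC controls had 18879085 and 21351965 reads over whole bodies, and 15666599 and 17730066 over the first 90 kb of each body. All 8 neural progenitor markers were at least 2-fold higher in NPCs than in mESCs and all 9 pluripotency marker rows lower. The degrons act on protein, so nascent Rad21 and Ctcf, which stayed within 0.10 log2 units of the controls at 4 h in NPCs and at 6 h in CTCFAID cells, do not check the depletion. The 2 groups of NPC libraries after 1 h were counted over the first 90 kb of each body and were compared with controls counted the same way. The study calls the CTCF depletion replicates biological, but the labels do not say whether libraries of a group came from separate cultures. The p-values measure the spread between these libraries, which may be technical.

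Reads of overlapping bodies were counted for every member they fall in. Pcdhga1 covers 180081 bp and holds the bodies of the other 20 gamma genes, and no count of an alpha or gamma member was below that of the next member downstream in any of 1792 comparisons. Alpha and gamma members are therefore not independent measurements. The difference between the counts of consecutive members, called a segment here and named by its 2 ends, leaves the reads between one start and the next. A segment can still hold RNA that began at any promoter upstream of it. Beta bodies of 2588 to 8695 bp do not nest, except that Pcdhb21 and Pcdhb22 overlap each other. The rows Gm42416, Gm37388 and Gm37013 span members on the same strand, and reads from antisense RNA cannot be told apart where the counting ignored strand.

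In the untreated cells the alpha and beta clusters were near silent in mESCs and transcribed in NPCs, and the gamma cluster was transcribed in both. Levels are given as CPM, counts scaled to library size with TMM factors. The 2 NPC controls held 5018 reads in the alpha bodies, 2411 in the beta bodies and 15007 in the gamma bodies. The 12 additional mESC controls together held 476 alpha, 203 beta and 26944 gamma reads. A read was present for 22 of 22 beta genes in NPCs and for 17 of 22 in these mESCs.

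**Figure D1:**
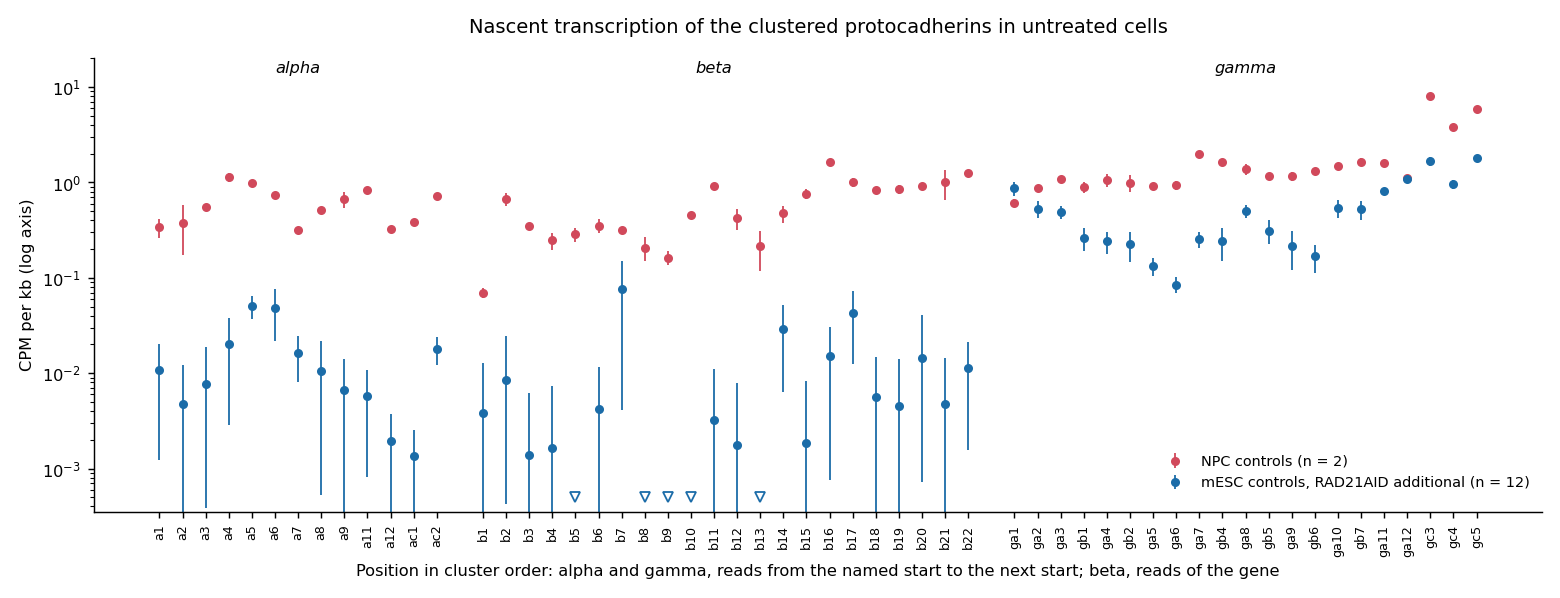
Read counts scaled to library size (CPM) per kb in untreated NPCs (2 libraries) and mESCs (12 libraries) at 56 positions in genomic order, as segments for alpha and gamma and as members for beta, on a log axis with mean ± SD. Open triangles at the bottom mark the 5 beta genes with no read in the mESC controls, and the groups meet most closely in the gamma cluster.

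Per kb of counted DNA, levels were uneven along the clusters. In NPC controls the beta genes ran from 0.0700 ± 0.00816 CPM per kb for Pcdhb1 (SD, n = 2) to 1.65 ± 0.0544 for Pcdhb16. Pcdhb1, which opens the beta cluster, held 7 reads in both control libraries together, and Pcdhb22, which closes it, reached 1.27 ± 0.0742 CPM per kb. In the gamma cluster of NPCs the segment from Pcdhgc3 to Pcdhgc4 stood at 8.16 ± 0.414 CPM per kb, against 1.11 between Pcdhga12 and Pcdhgc3. The segments with the highest level in NPCs thus lay at the 3′ end of the gamma cluster, downstream of the Pcdhgc3 start.

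The mESC controls had a different order within the gamma cluster, although their highest segments also lay downstream of the Pcdhgc3 start. Pcdhgc5 to the end stood at 1.81 ± 0.1 CPM per kb (SD, n = 12) and Pcdhgc3 to Pcdhgc4 at 1.68 ± 0.187. In these mESCs the first gamma segment, from Pcdhga1 to Pcdhga2, stood at 0.867 ± 0.137 CPM per kb, and the segment from Pcdhga6 to Pcdhga7 was lowest at 0.0851 ± 0.0165. The segment between Pcdhga12 and Pcdhgc3 reached 1.08 ± 0.0466 CPM per kb, close to its level in NPCs. In the beta cluster of mESCs Pcdhb7 had the highest mean at 0.0763 ± 0.0722 CPM per kb, an SD almost as large as the mean. From Pcdha1 to Pcdhac1 the mESC level was 0.0102 ± 0.00188 CPM per kb.

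A gene was tested where its mean count was over 20 in at least 1 of the groups compared, with edgeR's quasi-likelihood test and Benjamini-Hochberg adjustment over every gene tested. A change below means an adjusted p under 0.05, and a gene is said to be called where that change was also at least 2-fold after centring on the median of expressed genes. The adjusted p and the SE come from the change before centring, whereas the log2 values printed are centred. NPC controls against the 12 mESC controls called 50 of 50 members tested, each higher, where 45.5% of all genes tested were called and 26.8% were called higher. Among these, 22 passed the count minimum through the NPC libraries alone and had to differ, and with no count minimum 56 of 56 members were called higher against 23.6% of all genes. The median log2 difference was 5.88 for 13 alpha, 6.70 for 16 beta and 1.47 for 21 gamma members, beside 0.11 over all genes tested. Cell type, library set and batch differ together between these groups and cannot be told apart. Fewer cells of a type that use a gene and less RNA of it per cell cannot be told apart in bulk samples either.

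Pcdha1, which covers the whole alpha cluster, stood at 132 and 129 CPM in the NPC controls and at 1.88, 2.36 and 3.29 CPM (lowest, median and highest) in the mESC controls. Its level was 52.2-fold higher in NPCs. Pcdhac2, the C-type gene that closes the cluster and is known for spacing serotonergic axons, had 33.1 and 30.0 CPM in NPCs against 0.437, 0.726 and 1.21 CPM, a 38.7-fold difference. Every NPC library lay above every mESC library for both genes. Among beta genes, Pcdhb16 was 107-fold and Pcdhb22 104-fold higher in NPCs, and the smallest difference was that of Pcdhb7, at 4.62-fold (log2 2.21, SE 0.417). The ratios of the beta genes with the fewest mESC reads are bounds or have wide counting intervals. Pcdhb10 had 50 reads in NPCs and none in mESCs, at least 81.2-fold higher against a floor of 3 reads over the group. Pcdhb11 had 156 against 3 reads (253-fold, 95% counting interval 85.1 to 1241), Pcdhb21 179 against 3 (291-fold, 97.8 to 1422) and Pcdhb15 82 against 1 (399-fold, 69.7 to 15964).

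Gamma differences were smaller and depended on position. Pcdhga1 was 2.77-fold and Pcdhgc3 3.76-fold higher in NPCs. Of 21 gamma segments tested, 17 were called higher, where 26.8% of all features tested with segments in place of nested members were called higher. The segments between the Pcdhgb1 and Pcdhga5 starts passed the count minimum through the NPC libraries alone, and so had to differ. The same holds for Pcdhga6 to Pcdhga7, Pcdhga9 to Pcdhgb6 and Pcdhgb6 to Pcdhga10. The segment from Pcdhga1 to Pcdhga2 was lower in NPCs, with a log2 difference of -0.50, and the segment from Pcdhga12 to Pcdhgc3 differed by 0.06 (SE 0.0501, adjusted p = 0.470 by edgeR). Downstream of Pcdhgc3 the segments to Pcdhgc4, to Pcdhgc5 and to the end were higher by 2.28, 2.02 and 1.74.

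Loss of RAD21 in mESCs moved the alpha and gamma clusters by less than 2-fold. In the additional set of 12 and 12 libraries, 0 of 31 members tested were called (0.845% of all genes were). By the adjusted p alone, 10 of 10 alpha members tested rose (30.4% of all genes did) and 20 of 21 gamma members fell (28.1% did). Pcdha8, Pcdha9 and Pcdha11 passed the count minimum through the IAA libraries alone, which fixes their direction, so the alpha count is partly set by that minimum. Pcdha12, Pcdhac1 and Pcdhac2 did not reach it. Median log2 changes were 0.52 for alpha and -0.30 for gamma members, beside 0.03 over all genes tested. No beta gene reached the count minimum. In the initial set of 2 and 2, 0 of 34 members were called (0.461% of all genes), 0 of 13 alpha members changed (0 of 13 also at an unadjusted p under 0.05) at a median of 0.36, and 16 of 21 gamma members fell (5.24% of all genes) at a median of -0.29. Batch CC53 alone, with 11 and 11 libraries, also had 0 members called, as did DESeq2 over the whole additional set.

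Pcdha1 in the additional set stood at 1.88, 2.36 and 3.29 CPM in controls and at 3.02, 3.67 and 5.11 CPM after IAA (lowest, median and highest of 12), from 476 and 672 reads in all. Its groups overlapped, and the log2 change was 0.58 (SE 0.103, adjusted p = 5.76e-06 by edgeR). Pcdhga1 stood at 130, 144 and 148 CPM in controls and at 118, 126 and 129 CPM after IAA, a log2 change of -0.19 (SE 0.0201, adjusted p = 1.48e-12 by edgeR). The highest IAA library lay below the lowest control library for this gene. Pcdhgc3, a gamma gene known for promoting dendrite branching, went from 49.9, 59.8 and 62.6 CPM to 48.5, 53.5 and 57.4 CPM, with overlap (log2 -0.15, adjusted p = 2.07e-06 by edgeR), and Pcdhgc5, the last gamma start, moved by -0.04, which did not pass the test. Within batch CC53 the changes of Pcdha1 and Pcdhga1 were 0.54 and -0.20. Few beta reads were present, with Pcdhb7 at 45 reads in controls and 59 after IAA and Pcdhb14 at 52 and 83.

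The segments of the gamma cluster moved in opposite directions in these mESCs. Of 18 tested, 8 rose and 6 fell, with 0 called (0.846% of all features tested with segments). Those that rose lay in the 5′ part of the cluster, between 0.29 for Pcdhga1 to Pcdhga2 and 0.54 for Pcdhgb1 to Pcdhga4. Pcdhgb1 to Pcdhga4, Pcdhga4 to Pcdhgb2 and Pcdhgb2 to Pcdhga5 passed the count minimum through the IAA libraries alone, which fixes their direction. They held 240, 207 and 198 reads in controls and 332, 247 and 247 after IAA. Pcdhga6 to Pcdhga7, Pcdhga9 to Pcdhgb6 and Pcdhgb6 to Pcdhga10 did not reach the minimum. Those that fell ran from Pcdhga10 to the Pcdhgc5 start. The segment from Pcdhga11 to Pcdhga12 had 7.33, 8.01 and 9.55 CPM in controls and 3.98, 4.66 and 5.58 CPM after IAA, a log2 change of -0.77. The segment from Pcdhga12 to Pcdhgc3 had 39.8, 44.0 and 46.7 CPM against 28.3, 29.8 and 33.7 CPM, a 1.44-fold fall (log2 -0.53, SE 0.0318, adjusted p = 1.05e-20 by edgeR). Neither of these segments overlapped between control and IAA libraries. In the initial set the latter had 63.0 and 74.3 CPM in controls and 45.0 and 49.7 CPM after IAA, also a log2 change of -0.53 (SE 0.0868, adjusted p = 7.92e-08 by edgeR).

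Loss of RAD21 in NPCs lowered the gamma cluster, by 4 h in every member, while the nested alpha members stayed within 0.13 of 0 at that time. After 1 h, 0 of 50 members tested were called (0.593% of all genes), with 5 alpha and 15 gamma members lower by the adjusted p (7.41% of all genes). After 2 h, 0 of 50 were called (1.5% of all genes) and 9 gamma members fell (9.21% of all genes). After 4 h, 2 of 51 were called (3.57% of all genes, 2.75% lower), both of them beta genes. At that time 21 of 21 gamma members and 4 of 17 beta members fell (21.1% of all genes) and 9 of 13 alpha members rose (18.4% of all genes). Median gamma changes were -0.19, -0.31 and -0.62 after 1, 2 and 4 h, beside -0.03, -0.04 and -0.02 over all genes, and the 1 h value comes from the 90 kb counts. Between 2 h and 4 h of IAA 0 of 48 members were called (0.32% of all genes) and 2 fell (2.02% of all genes). The 3 times share the 2 control libraries. In the same libraries the 7 neuron markers summed to 338 to 339 CPM in controls and 275 to 289 at 4 h, with 4 lower and 1 higher by the adjusted p and none at 0, and the 8 progenitor markers to 1113 to 1166 and 1156 to 1208 CPM. The 4 astrocyte markers summed to 62.3 to 65.0 CPM in controls, 45.8 to 46 CPM at 2 h and 44.1 to 47.9 CPM at 4 h, with 1 of 3 tested lower and none at 0. Their part in the protocadherin values was not tested.

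Pcdhga1 had 384 and 396 CPM in the NPC controls, 294 and 339 after 2 h and 248 and 257 after 4 h of IAA. Each IAA library lay below both controls, and at 4 h the fall was 1.57-fold (log2 -0.66, SE 0.0371, adjusted p = 7.01e-15 by edgeR). Pcdhgc3 had 215.3 and 225.8 CPM in controls, 185 and 224 after 2 h and 169 and 172 after 4 h, so that its groups overlapped at 2 h and not at 4 h (log2 -0.40 at 4 h, adjusted p = 3.1e-09 by edgeR). Pcdhgc5 fell by 0.45 at 4 h. In the same comparison the alpha members stayed between 0.00 and 0.13. Pcdha1 had 132 and 129 CPM in controls, 127 and 122 after 2 h and 137 and 149 after 4 h, a log2 change of 0.11 at 4 h (adjusted p = 0.0118 by edgeR). Pcdhac1 had 54.0 and 50.1 CPM in controls against 52.6 and 55.8 at 4 h, and Pcdhac2 33.1 and 30.0 against 35.3 and 33.8. The libraries of Pcdhac1 overlapped and those of Pcdhac2 did not. Of 13 alpha segments, 4 rose at 4 h, from 0.47 to 0.51, and 0 were called. The largest of these changes was from Pcdha11 to Pcdha12, with 12.2 and 12.9 CPM in controls, 15.8 and 13.6 after 2 h and 18.3 and 18.1 after 4 h (log2 0.51, SE 0.103, adjusted p = 8.89e-05 by edgeR).

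Beta genes fell at 4 h about as often as genes in general, 4 of 17 beside 21.1% of all genes tested, and 2 of those that fell, Pcdhb21 and Pcdhb22, overlap each other. Pcdhb21 had 5.87 and 3.58 CPM in controls, 3.05 and 3.82 after 2 h and 1.195 and 2.21 after 4 h, a 2.82-fold fall at 4 h (log2 -1.49, SE 0.274, adjusted p = 6.29e-05 by edgeR). Pcdhb20 had 3.38 and 3.19 CPM in controls, 2.13 and 1.398 after 2 h and 1.96 and 1.05 after 4 h, a 2.20-fold fall (log2 -1.14, SE 0.276, adjusted p = 0.00169 by edgeR). Both controls lay above both 4 h libraries for each gene, although the 2 controls of Pcdhb21 themselves differed widely. Pcdhb22 had 8.03 and 8.72 CPM in controls against 4.13 and 5.71 at 4 h (log2 -0.80, SE 0.166). Pcdhb14, further upstream, had 3.54 and 4.71 CPM against 3.04 and 2.21 (log2 -0.68, SE 0.228, adjusted p = 0.0234 by edgeR). Pcdhb16, the beta gene with the highest level per kb in NPCs, had 8.42 and 8.82 CPM against 7.17 and 7.22, which did not pass the test. Over 17 beta members the log2 change ran from -1.49 to 0.56 with a median of -0.39. Summed over the beta genes, controls had 61.9 and 63.4 CPM and the 4 h libraries 46.8 and 47.3 (log2 -0.44, SE 0.0556). In the additional mESC set the same sum changed by 0.46 (SE 0.151), from 203 reads in controls and 265 after IAA.

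Every gamma segment fell after 4 h in NPCs. All 21 passed the test and 7 were called, where 3.6% of all features tested with segments were called and 2.79% were called lower. The median was -0.96 and the range -1.62 to -0.32. The largest change was between Pcdhga12 and Pcdhgc3, with 44.8 and 45.5 CPM in controls, 26.4 and 22.9 after 2 h and 14.3 and 15.5 after 4 h. That segment had fallen 3.08-fold by 4 h (log2 -1.62, SE 0.0787, adjusted p = 1.74e-16 by edgeR), and its libraries were ordered by time without overlap. After 1 h, in the 90 kb counts, it had 54.3 and 55.0 CPM in controls against 42.3 and 41.1 (log2 -0.42, SE 0.0655). The segments downstream of Pcdhgc3 fell by 0.32, 0.35 and 0.45 at 4 h.

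**Figure D2:**
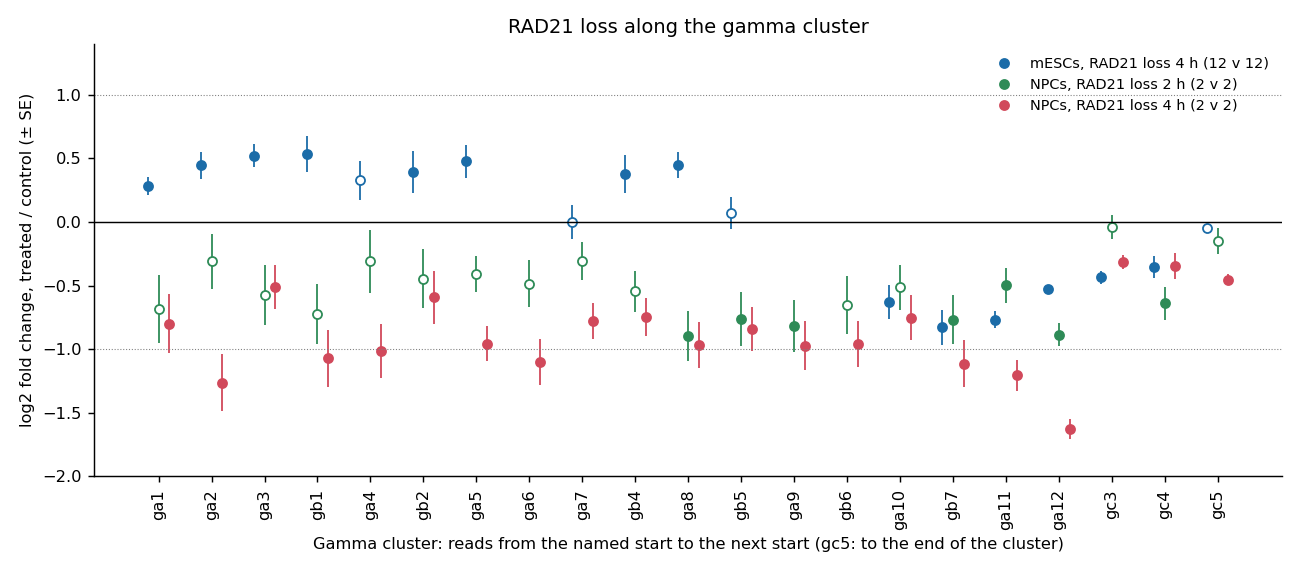
Log2 change after RAD21 loss for each gamma segment in genomic order, in mESCs (4 h, 12 and 12 libraries) and NPCs (2 h and 4 h, 2 libraries a group), with SE bars and with filled points for an adjusted p under 0.05. In mESCs the 5′ segments lie above 0 and the segments around Pcdhga12 below it, whereas at 4 h in NPCs each segment lies below 0.

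The 4 h response differed between NPCs and mESCs. The difference itself was tested in a single fit of the additional mESC set and the NPC libraries. Among 51 members tested, 2 were called, both lower in NPCs (5.05% of all genes were called, 3.62% lower), and 29 passed the test, including 21 gamma and 6 alpha members lower in NPCs (18.3% of all genes). The called genes were Pcdhb21 (log2 -2.77, SE 0.910, adjusted p = 0.0141 by edgeR) and Pcdhb14 (log2 -1.4, SE 0.403, adjusted p = 0.00532 by edgeR). The mESC side of these genes rests on few reads, 3 in controls and 9 after IAA for Pcdhb21 and 52 and 83 for Pcdhb14. Without NPC control 2 the count of called members was 1. Of the gamma segments, 15 of 21 passed, each lower in NPCs, and 10 were called (5.11% of all features tested with segments). They included Pcdhga1 to Pcdhga2 at -1.07, Pcdhga2 to Pcdhga3 at -1.69 and Pcdhga12 to Pcdhgc3 at -1.08 (SE 0.0888). The first 2 had risen in mESCs, whereas the last had fallen in both cell types.

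A-485 for 1 h in NPCs lowered the gamma cluster, most alpha members rose by less than 2-fold, and no beta member passed the test. Of 52 members tested over the first 90 kb, 2 were called, both lower and both gamma genes, where 21% of all genes were called and 20.2% were called lower. By the adjusted p, 21 of 21 gamma members and 2 of 13 alpha members fell (35.3% of all genes did), 10 alpha members rose (32.4% did) and 0 of 18 beta members changed, also at an unadjusted p under 0.05. Medians were -0.74 for gamma, 0.23 for alpha and 0.08 for beta members, beside -0.11 over all genes tested. The median of expressed genes stood at 0.123 in this comparison and was subtracted from each value, and without that step 0 members were called. In this comparison the adjusted p therefore tests a change 0.123 higher than the one printed. Without the second A-485 library 5 members were called, and without the first or without control 2 the count was 1. The 8 neural progenitor markers, 7 of them called lower at a median of -1.95, summed to 1348 to 1409 CPM in the 90 kb controls and 556 to 728 CPM after A-485, none at 0. The 7 neuron markers summed to 192.5 to 192.9 and 107 to 118 CPM, the 4 astrocyte markers to 75.4 to 78.6 and 32.65 to 37.03 CPM, and the 8 pluripotency markers to 64.1 to 73.8 and 24.01 to 26 CPM, with none at 0. The part of these shifts in the protocadherin values was not tested.

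Pcdhga10 had 273 and 282 CPM in the 90 kb control counts and 147 and 148 CPM after A-485, a 2.04-fold fall (log2 -1.03, SE 0.0600, adjusted p = 1.61e-09 by edgeR). Pcdhgc4, which interneurons need to survive development, had 178 and 184 CPM against 89.7 and 107 (a 2-fold fall, SE 0.0754), and Pcdhgc3 261 and 273 CPM against 134 and 158 (log2 -0.98). Both A-485 libraries lay well below both controls for each. Pcdhga1, whose first 90 kb end upstream of Pcdhgc3, had 122 and 125 CPM against 108 and 106 (log2 -0.32, SE 0.0610, adjusted p = 0.00857 by edgeR). The windows of 12 of 21 gamma members, from Pcdhgb4 on, reach the Pcdhgc3 start. Among the segments, Pcdhgc4 to Pcdhgc5 had 20.2 and 20.8 CPM in controls and 5.70 and 5.19 after A-485, a 4.09-fold fall (log2 -2.03, SE 0.138, adjusted p = 3.38e-09 by edgeR). It was the 1 segment called of 5 that lie in the windows, where 21.1% of all features tested were called and 20.2% lower. The segment Pcdhga12 to Pcdhgc3 had 54.3 and 55.0 CPM against 36.7 and 34.0 (log2 -0.75).

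In the alpha cluster both C-type genes fell, Pcdha12 moved by -0.04 without passing the test, and the other 10 members rose. Pcdhac2 had 40.0 and 36.3 CPM in controls against 29.7 and 26.9 after A-485 (log2 -0.55, SE 0.0904, adjusted p = 0.000652 by edgeR), and Pcdhac1 fell by 0.48. Pcdha1 rose, from 67.5 and 68.1 CPM to 94.2 and 84.7 (log2 0.28, SE 0.0693, adjusted p = 9.53e-05 by edgeR). Its groups did not overlap, and neither did those of Pcdhac2. Without centring, Pcdha1 and Pcdhac2 moved the same ways, by 0.40 and -0.425, and their adjusted p values belong to these changes. Pcdhb16 had 10.2 and 10.7 CPM against 11.7 and 11.7, and Pcdhb22 9.72 and 10.5 against 12.2 and 12.4, with neither passing the test.

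**Figure D3:**
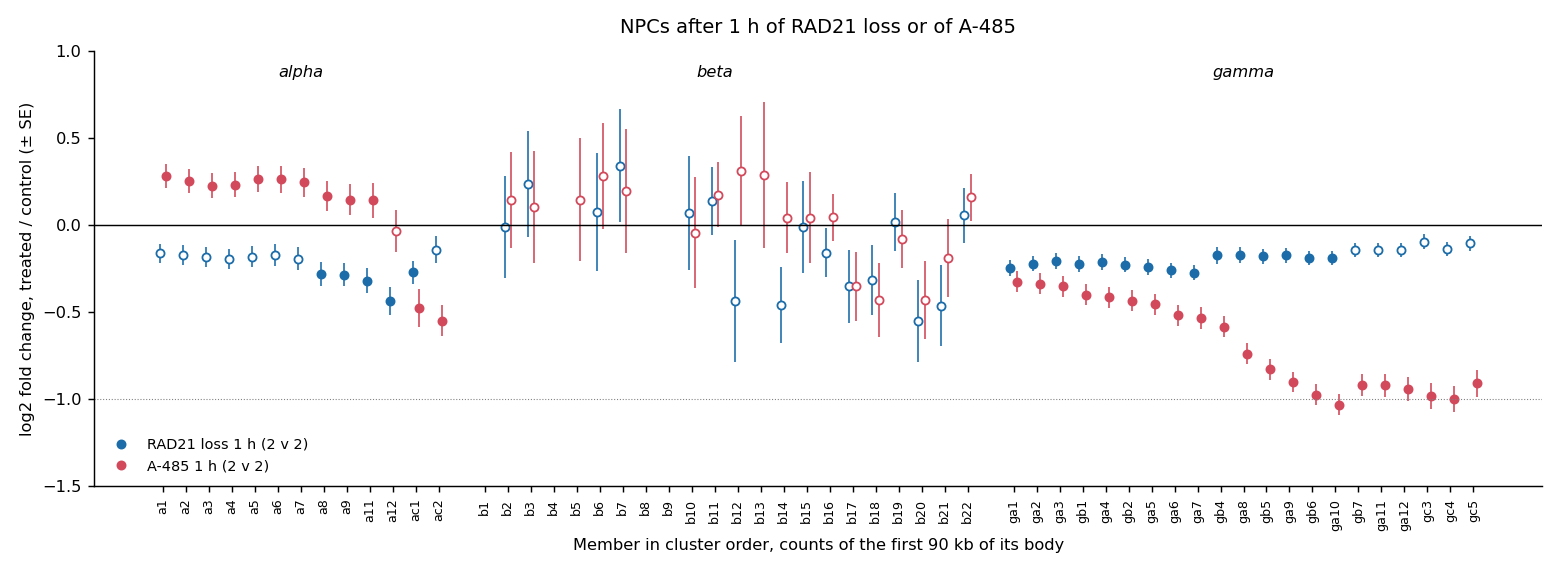
Log2 change of each member in genomic order in NPCs after 1 h of IAA and 1 h of A-485, from counts over the first 90 kb, with SE bars and 2 libraries a group. After A-485 the gamma members lie between -1.03 and -0.32, and the alpha members other than Pcdha12, Pcdhac1 and Pcdhac2 lie above 0.

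RAD21 loss and A-485 at 1 h share the control libraries, so their values are given side by side. Between Pcdhga12 and Pcdhgc3 the log2 changes were -0.42 after 1 h of IAA and -0.75 after 1 h of A-485. For Pcdhgc3 they were -0.09 (adjusted p = 0.31 by edgeR, n = 2 libraries a group) and -0.98 (adjusted p = 4.63e-08).

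CTCF loss for 6 h in mESCs lowered the gamma segments upstream of the Pcdhgc3 start. Alpha and beta members did not reach the count minimum, with 32 and 33 alpha reads and 13 and 15 beta reads in the 2 pairs of controls. Of 21 gamma members tested, 0 were called (1.45% of all genes were, 0.89% lower) and 11 fell (2.01% of all genes), or 20 with the replicate number as a block. Their median was -0.67 with a range of -0.93 to -0.15, beside 0.02 over all genes tested, and DESeq2 also called 0 members. Counts nested over the cluster hide the size of the change, since 14 of 18 segments tested were called lower, where 1.54% of all features tested with segments were called and 0.98% lower. Most of the called segments passed the count minimum through the controls alone, which fixes their direction, so this count is a description. After IAA the whole stretch from Pcdhga1 to Pcdhga12 held 140, 116, 27 and 156 reads per library. The segment count was 8 without either control not named stranded or without stranded control 2, and 9 without IAA library 2 not named stranded. The segment median was -2.86. With the stranded libraries alone, 2 against 2, 0 segments were called.

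From Pcdhga1 to Pcdhga12 the 2 CTCFAID controls not named stranded had 48.3 and 46.6 CPM and the 2 stranded controls 44.5 and 48.2 CPM. After IAA the same stretch had 9.15 and 8.60 CPM without and 3.41 and 8.71 CPM with the stranded protocol, all 4 far below every control. This stretch was chosen after its values were seen and is described without a test. Its log2 change was -2.62 (SE 0.235), a 6.15-fold lower level. Single segments inside it fell with adjusted p under 0.05 by edgeR, from -1.90 for Pcdhga11 to Pcdhga12 to -4.62 for Pcdhga9 to Pcdhgb6, which had 93 reads in controls and 3 after IAA (ratio 29.4, 95% counting interval 9.74 to 145). The segment from Pcdhga12 to Pcdhgc3 went from 26.2, 27.3, 24.3 and 40.4 CPM to 13.7, 13.04, 12.4 and 20.9 CPM (log2 -0.96, adjusted p = 0.0348 by edgeR), without overlap. Pcdhgc3 and what follows it had 48.7, 53.0, 44.3 and 67.7 CPM against 42.6, 45.0, 39.6 and 53.5 CPM. Each treated library was lower than its same-numbered control there, but the groups overlapped and the change of -0.23 did not pass the test (adjusted p = 0.435 by edgeR). With the replicate number as a block Pcdhgc3 passed at -0.23 (adjusted p = 0.00518 by edgeR).

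Removal of CTCFYF-AA, a protein made to lose its hold on cohesin, also lowered the gamma cluster. After 2 h, 0 of 21 gamma members were called (0.814% of all genes were) and 18 fell (2.7% of all genes), at a median of -0.60. After 4 h, 2 of 21 were called, both lower (1.03% of all genes, 0.791% lower), and 21 fell (3.4%), at a median of -0.82. The called genes were the first 2 of the cluster, Pcdhga1 (log2 -1.07, SE 0.0695, 2.09-fold, adjusted p = 6.16e-18 by edgeR) and Pcdhga2 (log2 -1.03, 2.04-fold). Without the first 4 h library 1 member was called, and without the second 5 were. Of 16 segments tested, 10 were called lower at 2 h (0.871% of all features, 0.728% lower) and 9 at 4 h (1.08%, 0.841% lower). Most of the called segments passed the count minimum through the controls alone, which fixes their direction, so these counts are a description. Pcdhga2 to Pcdhga3, for instance, held 71 reads in controls, 7 at 2 h and 7 at 4 h. The 2 h count was 4 without control 2, 5 without the second 2 h library, 5 by DESeq2 and 6 with the replicate number as a block. The times share their 2 controls.

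The stretch from Pcdhga1 to Pcdhga12 had 89.1 and 87.6 CPM in CTCFYF-AA controls, 26.9 and 27.2 after 2 h and 23.9 and 22.6 after 4 h. The groups were far apart at both times, with log2 changes of -1.70 (SE 0.117) and -1.92 (SE 0.107), again described without a test. Pcdhga2 to Pcdhga3 had the largest segment changes, -3.12 (SE 0.584) at 2 h and -3.42 (SE 0.563) at 4 h. Pcdhga12 to Pcdhgc3 went from 25.3 and 27.2 CPM to 19.0 and 15.2 and then 12.7 and 15.4 (log2 -0.65 and -0.90). Pcdhgc3 went from 61.5 and 64.1 CPM to 57.6 and 52.8 and then 45.6 and 48.4, and fell by 0.41 at 4 h (adjusted p = 0.00358 by edgeR). The 6 h CTCFAID response minus the 4 h CTCFYF-AA response passed for 0 of 21 gamma members and 0 of 18 segments by edgeR, with 0.512% of all genes called, and 0 members and 3 segments had an unadjusted p under 0.05. The members' median difference was 0.18, and a test that does not pass does not show that the responses are alike.

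**Figure D4:**
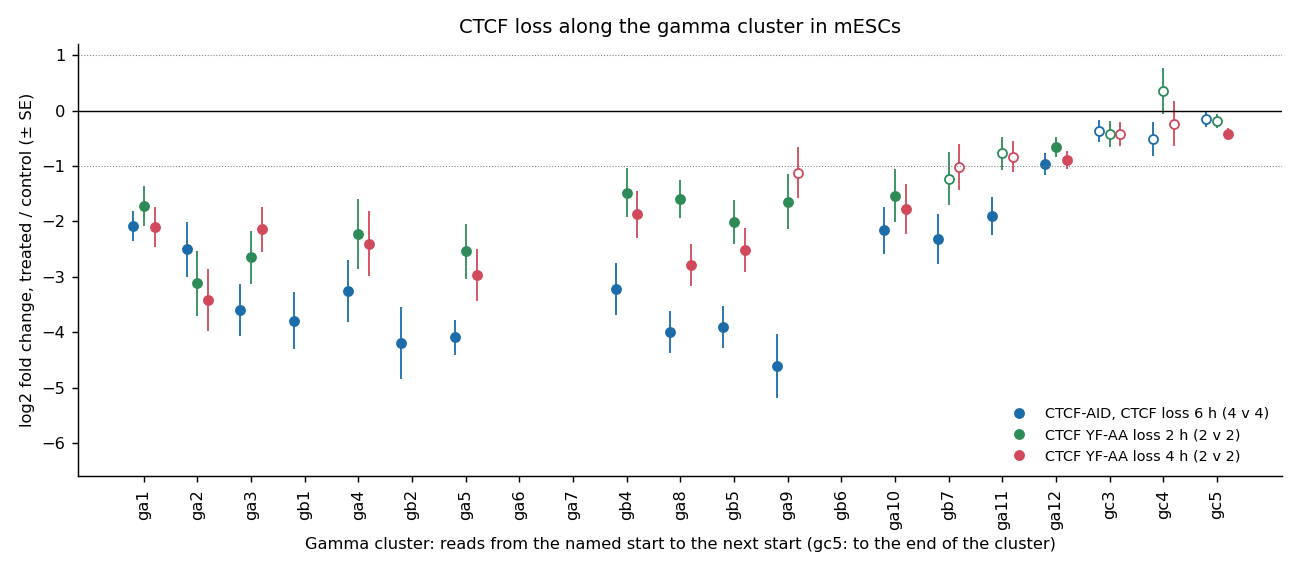
Log2 change for each gamma segment in genomic order after loss of CTCFAID (6 h, 4 and 4 libraries) and of CTCFYF-AA (2 h and 4 h, 2 libraries a group), with SE bars and filled points for an adjusted p under 0.05. Segments upstream of Pcdhga12 reach -4.62 and those downstream of Pcdhgc3 lie between -0.51 and 0.35.

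In the ΔN/ΔC line, 3 of 21 gamma members fell when the protein without the N terminus was removed and none when the protein without the C terminus was removed. For no member did the difference between these responses pass a test of its own. AGB1 called 0 of 21 gamma members (0.404% of all genes) and lowered 3 (1.49% of all genes), at a median of -0.29. dTAG13 called 0 of 21 (0% of all genes), where 11 of 13618 genes passed edgeR's adjusted p at all, and 0 of 21 members had an unadjusted p under 0.05. The members' median was -0.10 with a range of -0.12 to -0.03. Both agents together called 0 (0.807% of all genes) and lowered 18 (4.55%), at a median of -0.50. AGB1 set against dTAG13 directly called 0 members (0.344% of all genes) and none passed edgeR's adjusted p, although 11 of 21 were lower at an unadjusted p under 0.05. DESeq2 also called 0 members in each of these comparisons.

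Reads were few in this line. The stretch from Pcdhga1 to Pcdhga12 had 66 and 80 reads in controls, 27 and 30 after AGB1, 54 and 90 after dTAG13 and 37 and 25 after both. In CPM these were 8.17 and 9.28, 3.30 and 3.17, 7.25 and 8.88, and 3.29 and 2.82. The AGB1 and combined libraries lay below the controls and the dTAG13 libraries overlapped them. Its log2 changes, given without a test, were -1.43 (SE 0.236), -0.10 (SE 0.197) and -1.51 (SE 0.239). Set directly against dTAG13, AGB1 gave -1.33 (SE 0.232) for this stretch, which was chosen after its values were seen. Pcdhga12 to Pcdhgc3 was the 1 segment of 3 tested that was called, after both agents, from 7.79 and 8.12 CPM to 3.38 and 4.402 CPM (log2 -1.05, 2.08-fold, adjusted p = 0.00204 by edgeR, beside 0.823% of all features called and 0.641% lower). Under AGB1 alone it had 4.28 and 5.28 CPM and did not pass (adjusted p = 0.0904 by edgeR). The call after both agents was lost without the first combined library and with DESeq2, which called 0 segments.

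The untreated lines themselves differed, with line, colony and batch confounded, so that these cannot be told apart. Against CTCFAID controls of the same library type, CTCFYF-AA controls had 0 of 21 gamma members called (15.6% of all genes were) and 17 higher (24.5%), at a median of 0.39. Of its 18 gamma segments tested, 6 were called higher (5.31% of all features), among them Pcdhga8 to Pcdhgb5 at 1.93 (SE 0.284). The ΔN/ΔC controls had 18 of 21 called lower (12.7% of all genes called, 7.1% lower) and 19 lower by the adjusted p (10.2%), at a median of -1.29 with a range of -1.49 to -0.85. Pcdhga1, Pcdhga2, Pcdhga3 and Pcdhgb1 had the largest differences, at -1.49 (SE 0.188, 2.81-fold, adjusted p = 0.00839 by edgeR), -1.47, -1.44 and -1.4. Without either one of the ΔN/ΔC controls 0 members were called. From Pcdhga1 to Pcdhga12 the ΔN/ΔC controls had 8.17 and 9.28 CPM, and the CTCFAID libraries after IAA had 3.41 to 9.15.

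**Figure D5:**
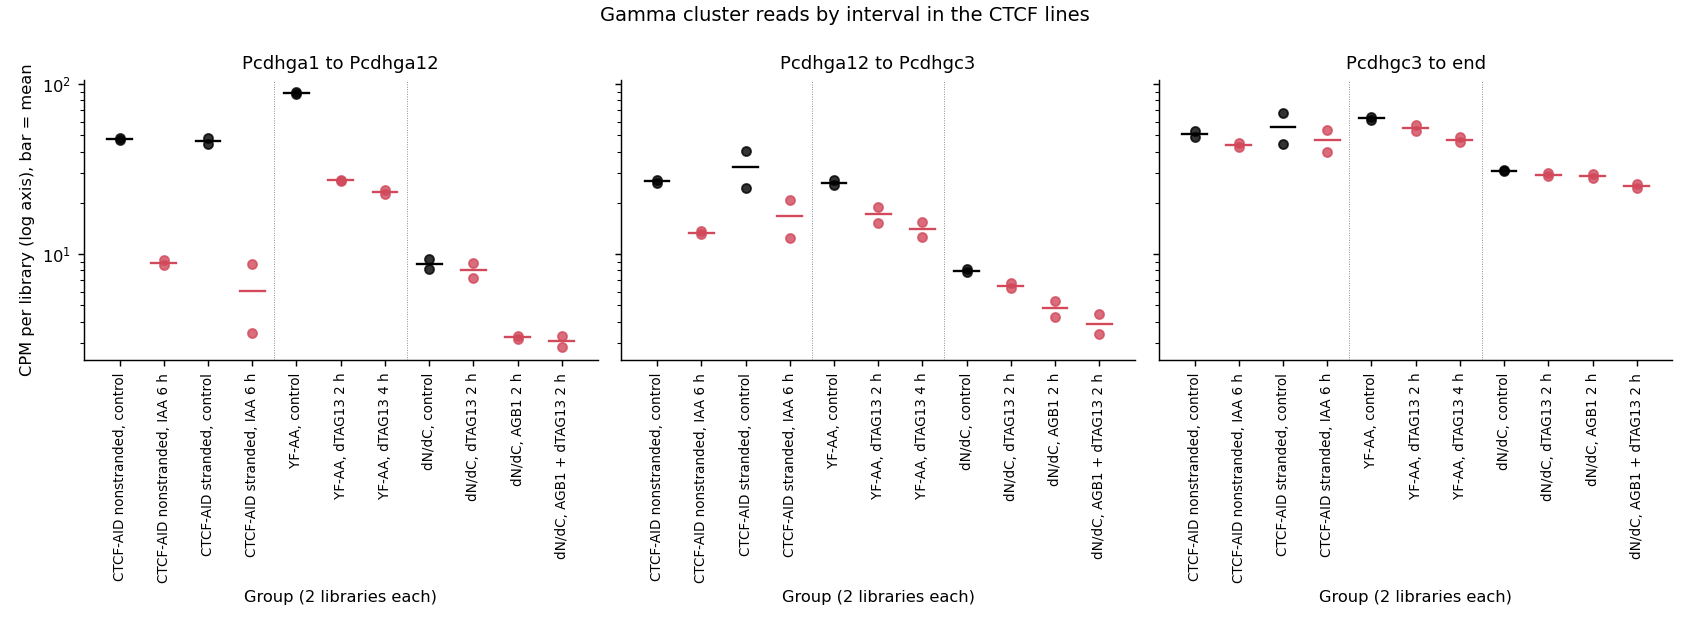
CPM of each library on a log axis in 3 stretches of the gamma cluster, for the control and treated groups of the CTCF lines, with a bar for the mean of the 2 libraries of a group. From Pcdhga1 to Pcdhga12 the CTCFAID and CTCFYF-AA controls lie between 44.5 and 89.1 CPM and the treated libraries between 3.41 and 27.2. Downstream of Pcdhgc3 the groups of a line lie closer together. There the CTCFYF-AA libraries at 4 h still lie below their controls (45.57 and 48.45 against 61.47 and 64.06 CPM).

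The share of gamma reads that fell between Pcdhga1 and Pcdhga12 put these opposite movements on 1 scale. It is a description of a stretch chosen after the values were seen. In the additional mESC set the share was 25.6% to 29.5% in controls (median 27.8%) and 31.5% to 34.2% after RAD21 loss (median 32.9%), without overlap, and the 1 pair of batch CC52 had 27.7% and 32.2%. The level of the stretch itself hardly moved in that set (log2 0.05, SE 0.0289), while Pcdhga12 to Pcdhgc3 changed by -0.53. In NPCs the share was 31.5% and 32.2% in controls, 27.3% and 28.1% after 2 h and 26.0% and 27.0% after 4 h of IAA, so it moved the other way. There the level of the stretch changed by -0.92 at 4 h (SE 0.0475) and that of Pcdhga12 to Pcdhgc3 by -1.62. In CTCFAID mESCs the mean share went from 36.5% to 10.9%, with 38.0% and 13.4% in the libraries not named stranded and 35.1% and 8.33% in the stranded ones. In CTCFYF-AA cells it went from a mean of 49.8% to 27.3% and 27.6%, and in the ΔN/ΔC line from 18.3% to 8.78% with AGB1 and 9.49% with both agents, against 18.3% with dTAG13. Counting error on any single library's share was at most 4.12 percentage points (95% Wilson interval), which covers counting only.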

How the data were processed

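Nascent RNA was profiled by EU-seq in 60 libraries. Per the study's methods, the authors trimmed reads with cutadapt, aligned them to mm10 with bwa, removed reads of mapping quality under 10 (samtools 1.4) and reads in ribosomal and transfer RNA, and counted reads over 1 representative gene body per gene with HTSeq. What they deposited are raw counts per gene body for 27665 transcripts in 62 columns, of which 0 were unused. The NPC controls have a column for the whole body and one for the first 90 kb. Whether counting used strand is not given in the sources used here. Names came from GENCODE M21 (27455 transcripts matched).

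Members, gene lists, segments and stretches were chosen with earlier results of these data known. Levels (CPM) are counts scaled to library size with TMM factors. Each comparison was fitted on its own groups with edgeR 4.0.16 in R 4.3.3 (quasi-likelihood test, TMM, Benjamini-Hochberg adjustment over every gene tested, mean count over 20 in at least 1 group). Fold changes were centred on the median of genes over 15 TPM. SE values are the log2 change before centring divided by the square root of F, and the p-values also test the uncentred change. CTCFAID fits held library type as a covariate. Segment fits put segments in place of the alpha and gamma members. The code was tested on simulated data. Alternatives were DESeq2 1.42.0, RLE size factors, no count minimum, no centring, a replicate block, segments, single batches or library types, and leaving out each library.

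Members named in the text were the C-type genes, the first and last of each cluster, those highest per kb in NPC or mESC controls, and up to 4 of the largest called changes in each direction and comparison with the same sign in every numbered pair. Single segments, stretches and the genes of other lists were chosen after their values were seen. Lists of regulators, partners, unclustered protocadherins, locus neighbours and cell type markers were also read. Same-numbered CTCFAID libraries deviated together (correlation 0.47 to 0.803 in 4 of 4 pairs). The main CTCFAID fits did not use this pairing, and fits with the replicate number as a block are given beside them. Of 148 pairs of libraries within a group, each differed by more than sampling noise (chi-square per degree of freedom 1.44 to 38.2). Counts of 0 to 3 reads are given as bounds or with exact conditional intervals, which cover counting error only.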

Additional observations from a re-analysis of the deposited data

Results flagged for a closer look

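The response to 4 h of RAD21 loss differed between NPCs and mESCs in a test of the difference itself. Among 51 members, 2 differed by at least 2-fold, Pcdhb21 and Pcdhb14, beside 5.05% of all genes, and both had few mESC reads (3 in controls and 9 after IAA for Pcdhb21, 52 and 83 for Pcdhb14). Among 21 gamma segments 10 did, beside 5.11% of all features. The segment from Pcdhga12 to Pcdhgc3 differed by -1.08 on the log2 scale, with a fall in both cell types that was larger in NPCs. Pcdhgc3, whose body runs to the end of the cluster, differed by -0.23 (adjusted p = 0.00326 by edgeR's quasi-likelihood test). Cell type, batch and number of libraries (2 against 12 a group) changed together and cannot be told apart. No group held 4 to 10 libraries of 1 kind apart from the CTCFAID groups, which join 2 library types, so single libraries far from the rest were not looked for.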

How the results depend on the processing

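In sets of 2 libraries a single library decided several counts, and the cause was not tested. Members called, as the lowest and highest on leaving out 1 library, ran from 0 to 1 for RAD21 loss at 2 h in NPCs (1 without either IAA library), 1 to 5 for A-485 (5 without the second A-485 library, 1 without the first or without control 2), 0 to 1 for CTCFAID (1 without stranded IAA library 2 or stranded control 1), 1 to 5 for CTCFYF-AA at 4 h (1 without the first and 5 without the second 4 h library), 0 to 21 for the ΔN/ΔC line against CTCFAID (0 without either ΔN/ΔC control, 10 without stranded control 2), 0 to 2 for NPC IAA 4 h against 2 h (2 without IAA 4 h library 2 or IAA 2 h library 1) and 1 to 2 for the NPC and mESC difference (1 without NPC control 2). Gamma segments called ran from 0 to 2 for RAD21 loss at 2 h (2 without IAA library 1, 1 without IAA library 2 or control 1), 1 to 3 for A-485 (3 without A-485 library 2), 8 to 15 for CTCFAID (8 without either control not named stranded or without stranded control 2, 9 without IAA library 2 not named stranded), 4 to 8 for CTCFYF-AA at 2 h (4 without control 2, 5 without dTAG13 library 2), 0 to 1 for both agents (0 without the first), 0 to 2 for NPC 4 h against 2 h (2 without IAA 2 h library 1), and 1 to 20 for the ΔN/ΔC line (1 without either of its controls, 20 without stranded control 1). With segments in place of members the counts were 9 for RAD21 loss at 4 h in NPCs, 1 for A-485, 14 for CTCFAID, 10 and 9 for CTCFYF-AA at 2 and 4 h, 1 for both agents, 6 for the CTCFYF-AA line and 11 for the ΔN/ΔC line. With no centring A-485 called 0 members. With no count minimum 1 member was called for RAD21 loss in the additional mESC set and 2 segments for both agents. DESeq2 called 5 segments for CTCFYF-AA at 2 h and 0 for both agents, and the stranded CTCFAID libraries alone called 0 segments.

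The replicate block on the CTCFAID pairs left 0 members and 14 segments called. Where the libraries share only a number, the block gave 6 segments for CTCFYF-AA at 2 h and 1 member for NPC 4 h against 2 h, and changed no other count of calls by over 1.5 times. In the additional mESC set 3 of 12 libraries correlated best with their own number. In the initial mESC set and the NPC 1 h set, whose numbered pairs correlated at -0.135 and -0.136, the crossed pairing called 0 members in both.

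Of single members' changes, 568 of the values under other settings stayed on their side of the threshold and 26 lost it, none with a turned sign, and on leaving out a library 412 stayed and 92 lost it. Depth limits beta genes in mESCs and most gamma segments of the ΔN/ΔC line, where 0 beta reads were present in the controls.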

Other observations

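Protocadherin genes outside the clusters were measured in the same libraries. Of 11 rows for 12 unclustered symbols, 10 were tested, and 10 of 10 were called lower after 1 h of A-485 (20.2% of all genes were), from -4.28 for Pcdh18 to -1.10 for Pcdh1, with a median of -2.56. After 4 h of RAD21 loss in NPCs, 2 were called lower (2.75% of all genes were), Pcdh18 (log2 -1.45, SE 0.0426) and Pcdh9 (log2 -1.22). Pcdh10 rose by 0.80. These are separate genes with promoters and bodies of their own, so their values do not nest. In NPCs against mESCs 10 of 10 were higher, at a median of 5.72, where 26.8% of all genes tested were called higher.

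Of 33 tested neighbours within 500 kb, 0 were called after 4 h in NPCs by edgeR (3.57% of all genes). The list of neighbours is not separate from the clusters, since it includes Gm42416, Gm37388 and Gm37013, which span members on the same strand. It also includes Pcdh1 and Pcdh12, which stand among the unclustered symbols as well. By the adjusted p, 5 were lower and 12 higher (21.1% and 18.4% of all genes). After A-485, 4 were called lower, beside 20.2% of all genes (Hbegf -2.07, 2010320O07Rik -1.95, Pcdh12 -1.15 and Pcdh1 -1.10). Among 13 partners, which include kinases and actin regulators that act with protocadherins, 0 were called after 4 h of RAD21 loss (3.57% of all genes in NPCs). Of these partners 5 fell (21.1% of all genes), with Fyn at -0.61, Wasf3 at -0.55 and Ptk2 at -0.30. After A-485, Fyn (-1.85) and Ptk2b (-1.73) were called lower, beside the same 20.2% of all genes. Of 24 regulators tested (cohesin, CTCF, chromatin and methylation genes), 0 were called after RAD21 loss, beside 3.57% of all genes at 4 h in NPCs. After A-485, Dnmt3a (-1.58), Stag2 (-1.24) and Atf7ip (-1.63) were called lower, a smaller share than the 20.2% of all genes.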
